A study of Homo sapiens with 9 samples.

Results

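DNA replication in human cells is set up in steps, and the 55 genes described here act in those steps, from the marking of origins to the supply of deoxynucleotides (dNTP). They were chosen by name, as rows of the deposited expression table that carry the symbol of a replication factor. Earlier results of these data were known when the list was made. All 55 were among the 22587 genes of the table, and all 55 passed the filter of a mean of at least 0.5 FPKM (fragments counted on a gene, divided by its length and by the depth of the library) that left 11880 genes for testing. They lay on 21 chromosomes and fall into 9 subgroups, of which the largest are 10 genes of licensing with the MCM helicase and 9 of the polymerases and primase.

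In G1 phase the origin recognition complex (ORC) and CDC6 sit on origins and, with CDT1, load the ring of MCM2 to MCM7, a step called licensing that geminin (GMNN) blocks later in the cycle. In S phase CDC45 and the GINS complex turn the loaded ring into the active CMG helicase, and polymerases copy both strands behind it with the sliding clamp PCNA, which is put on DNA by the RFC loader. Ribonucleotide reductase (RRM1 and RRM2), thymidylate synthase (TYMS) and thymidine kinase (TK1) supply the dNTP. Glutamine (Gln) donates the amide nitrogen used in purine and pyrimidine ring synthesis. Many of these genes are known targets of the E2F transcription factors and are expressed mainly by dividing cells.

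RNA was sequenced from HepG2, a human liver tumor cell line, grown in high glucose DMEM with serum. There were 3 libraries with Gln added, 3 from cells deprived of Gln for 12 h and 3 from cells deprived for 24 h. Deprivation began 24 h after seeding. The sample titles give no hours for the group with Gln added, so no control matched to 12 h or 24 h is identified. Time in culture and time without Gln cannot then be told apart. GlutaMAX, a dipeptide that releases Gln, is the labelled treatment of the group with Gln added, whereas the treatment protocol and the methods assign it to the Gln-free medium, and these sources do not settle which. The labels do not say that the 3 libraries of a group came from separate cultures, and p-values then measure only the spread between these libraries, which may be technical.

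Fragment totals recovered from the steps of the deposited values were 29621270 to 36261546 fragments per library. The fewest fragments behind any value of a replication gene in any library were 165, for TIPIN. Between replicates, the coefficient of variation of the 55 genes had a median of 2.99% with Gln added, 4.49% after 12 h and 5.29% after 24 h. The liver origin of the line was visible in its transcripts, with albumin (ALB) at a mean of 3831 FPKM with Gln added and all 8 hepatocyte markers above the filter. Of 8 markers of other cell types 4 were in the table. The means with Gln added were 1.42 FPKM for the monocyte gene CD14, 0.286 for the endothelial gene PECAM1, 0.0139 for VWF and 0.00174 for the fibroblast gene COL3A1.

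The regions upstream of these genes are shown first, because E2F factors bind short GC-rich letters that lie close to many start sites. The letters searched were TTTCCCGC, TTTGGCGC, TTTCGCGC and TTTGCCGC on either strand, in windows from 250 bases before to 50 after each start in RefSeq (GRCh38.p14). A window was found for 49 of the 55 genes, 63 windows in all. MCM4, MCM5, GINS4, POLD3, RPA2 and RPA3 had no window in the table used. A match was present for 24 of the 49 genes (49%), against 3.99% of the 27305 genes with a window and 6.84% of the 9543 tested genes with one. Counted by window, matches stood in 39.7% of the windows of replication genes and in 3.31% of all 35116 windows. Among the licensing genes a match was present for 8 of the 8 that had a window, and among those of origin recognition for 1 of 6 (ORC3).

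The matches near the licensing genes other than MCM6 follow, each as 30 bases 5′ to 3′ on the strand of the gene, with the matching letters in capitals.
CDC6, chr17:40287875-40287904, plus strand: ggccattcggaTTTGGCGCgagcgcggctg
CDT1, chr16:88803743-88803772, plus strand: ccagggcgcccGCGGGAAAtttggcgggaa
GMNN, chr6:24775322-24775351, plus strand: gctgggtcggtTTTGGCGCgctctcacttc
MCM2, chr3:127598402-127598431, plus strand: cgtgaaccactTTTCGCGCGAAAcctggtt
MCM3, chr6:52284728-52284757, minus strand: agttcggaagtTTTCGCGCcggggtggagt
MCM3, upstream match, chr6:52284898-52284927, minus strand: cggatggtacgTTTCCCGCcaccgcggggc
MCM7, chr7:100101388-100101417, minus strand: ggggggcgacgTTTCGCGCcaatttcggtt
MCM7, upstream match, chr7:100101566-100101595, minus strand: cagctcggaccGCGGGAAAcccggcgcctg
MCM8, chr20:5950667-5950696, plus strand: ggatcactgaaGCGCCAAAaaagaatttag
MCM2, MCM3 and MCM7 had 2 matches each, which overlap in the capital run of MCM2. The match of CDC6 began at base 8 of the transcript and the first of MCM3 spanned the start, while that of CDT1 lay wholly upstream.

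MCM6 carried the most matches, 4 in 2 overlapping pairs, so its whole upstream sequence of 250 bases is given, chr2:135876444-135876693 on the minus strand. ORC2, the gene of the 55 that rose, is set beside it with chr2:200963661-200963910 on the minus strand, where none of the letters was present. ORC2 was picked by its rise. RRM1, TK1 and ORC1, which fell, had no match in their windows either.
MCM6: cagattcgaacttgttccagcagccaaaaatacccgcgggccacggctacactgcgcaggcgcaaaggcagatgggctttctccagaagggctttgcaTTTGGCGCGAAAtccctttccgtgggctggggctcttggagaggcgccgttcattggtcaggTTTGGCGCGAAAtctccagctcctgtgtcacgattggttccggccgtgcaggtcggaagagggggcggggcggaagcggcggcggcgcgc
ORC2: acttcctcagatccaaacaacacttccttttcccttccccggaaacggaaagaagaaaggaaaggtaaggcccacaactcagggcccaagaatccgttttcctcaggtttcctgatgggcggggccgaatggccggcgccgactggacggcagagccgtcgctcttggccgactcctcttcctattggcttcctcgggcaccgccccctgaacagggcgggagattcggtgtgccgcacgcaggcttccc
In each capital run of MCM6 the letters TTTGGCGC and GCGCGAAA share 4 bases and were counted as 2 matches.

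Other letters known from promoters were searched in the same windows. CCAAT, which the factor NF-Y binds, was present for 63.3% of the 49 genes and for 43.2% of the tested genes with a window. GGGCGG, the GC box bound by Sp1, stood at 77.6% against 76.6%. TTTGAA, part of the CHR element of genes expressed late in the cycle, was found for 1 gene (2.04%) against 13.4%. A match is a description of letters, and no binding was measured.

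Outside licensing, matches were fewer and each subgroup held some. They were present for 3 of 6 genes of helicase activation, 2 of 6 of the clamp and its loader, 4 of 8 polymerase and primase genes, 3 of 4 of fork protection and 1 of 4 of dNTP supply. A set of 3 is shown for contrast with the licensing genes: the clamp, the catalytic subunit of polymerase epsilon and its second subunit.
PCNA, chr20:5126663-5126692, minus strand: cagcgtcagggGCGGGAAAaggcgtgcgtt
POLE, chr12:132687342-132687371, minus strand: tgggtgggagcGCGCCAAAtttctcccctg
POLE2, chr14:49688201-49688230, minus strand: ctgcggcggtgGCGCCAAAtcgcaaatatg
POLE and POLE2 held the same 8 letters in the same orientation.

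To see how the supply of Gln bears on the replication program, each deprived group was compared with the group with Gln added on log2(FPKM + 0.1) with limma, in 1 fit of all 9 libraries with adjustment over the 11880 genes. The replication genes were lower almost throughout. At 12 h 51 of the 55 fell and 1 rose, with 3 not past the threshold of an adjusted p of 0.05. Over all tested genes 31% fell at 12 h and 29.1% rose. At 24 h 52 fell and 1 rose, against 31.7% and 33% of all genes. The 55 had a median log2 fold change of -0.81 after 12 h and -0.90 after 24 h, where that of all tested genes was -0.02 and 0.01. Groups that did not overlap, with every deprived library under every library with Gln added, were found for 51 of the 55 at 12 h (34.4% of all genes) and 52 at 24 h (34.1%). Both comparisons use the same 3 libraries with Gln added.

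In size, 14 of the genes were below -1 on the log2 scale at 12 h and 20 at 24 h, and the same 14 were below it at both times. Of the 55 genes 30 at 12 h and 34 at 24 h lay under the 5th percentile of all tested genes, which was -0.74 and -0.81. The standard errors of the 24 h fold changes were 0.0284 to 0.107, with a median of 0.0571. In bulk RNA, fewer cells in S phase and less of each RNA per cell cannot be told apart.

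**Figure D1:**
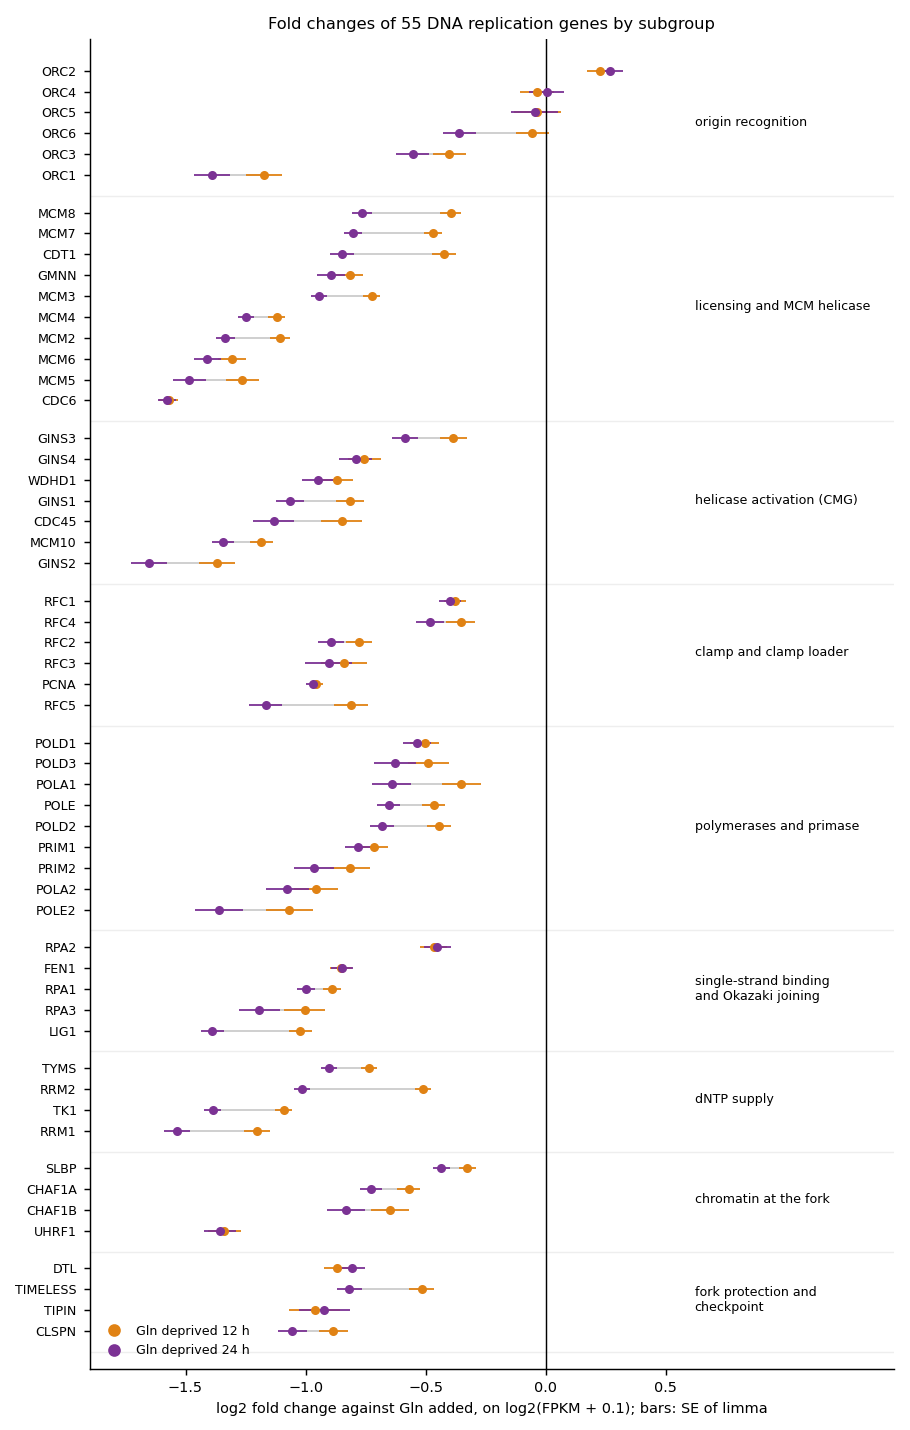
Log2 fold change of each of the 55 replication genes against Gln added, on log2(FPKM + 0.1), at 12 h (orange) and 24 h (purple), with bars for the SE of limma and genes grouped by subgroup. Of the 55 genes, only ORC2 was called higher, and ORC4 and ORC5 lay near 0 at both times.

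The same fall can be given as the share of fragments taken by these genes, since the fragments were recovered from the FPKM. The 55 genes took 0.502% to 0.51% of all fragments with Gln added, 0.3% to 0.303% after 12 h and 0.26% to 0.268% after 24 h. The 6 subunits of the MCM ring took 0.13% to 0.133%, 0.0702% to 0.0747% and 0.0601% to 0.063%. The 3 groups did not overlap for either sum.

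Origin recognition was the subgroup that moved least as a whole, with a median log2 fold change of -0.05 at 12 h and -0.20 at 24 h. The 12 h median became -0.14 without replicate 3 at 12 h, -0.03 without replicate 1 at 12 h and -0.08 without replicate 2 with Gln added. Its 6 genes did not move together. ORC1, an ATPase subunit that human cells degrade in S phase, stood at 11.3, 11.1 and 11.4 FPKM with Gln added, 5.56, 4.82 and 4.535 at 12 h and 4.13, 4.55 and 4.06 at 24 h. The deprived libraries were all well under the libraries with Gln added. The log2 fold changes of ORC1 (chr1:52372829-52404423) were -1.17 ± 0.0743 (SE) at 12 h and -1.39 ± 0.0743 at 24 h.

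ORC2, a subunit of the stable core of the complex, went the other way. It measured 15.3, 14.4 and 15.7 FPKM with Gln added, 18.5, 16.6 and 18.2 at 12 h and 18.9, 17.3 and 18.5 at 24 h. Every deprived library of ORC2 was above every library with Gln added, by a smaller step than in ORC1. The rise was 0.23 ± 0.0562 at 12 h (limma adjusted p = 0.00505) and 0.27 ± 0.0562 at 24 h (adjusted p = 0.00163).

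Of the other core subunits, ORC4 was at 6.51 ± 0.0945 FPKM (SD, n = 3) with Gln added, 6.36 ± 0.656 after 12 h and 6.53 ± 0.351 after 24 h. ORC5 was at 5.08 ± 0.412, 4.98 ± 0.76 and 4.90 ± 0.16 FPKM. The groups of both genes overlapped, and neither was called. The log2 fold changes were -0.04 ± 0.0715 and 0.00 ± 0.0715 for ORC4, and -0.03 ± 0.0982 and -0.05 ± 0.0982 for ORC5. ORC3 fell by 0.40 at 12 h and by 0.55 at 24 h on the log2 scale.

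ORC6, the smallest subunit and only loosely held by the others, was called at 24 h but not at 12 h. Its libraries read 27.5, 24.6 and 26.8 FPKM with Gln added, 25.7, 25.4 and 24.7 at 12 h and 22.15, 18.2 and 21.2 at 24 h. The 12 h values lay within the range of the group with Gln added, and the 24 h values were under both. From 12 h to 24 h ORC6 fell by 0.30 (adjusted p = 0.0115).

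Among the licensing genes all 10 fell at both times, with a median log2 fold change of -0.96 at 12 h and -1.10 at 24 h. CDC6, the ATPase that joins ORC on the origin, fell the most of the 55 at 12 h. Its values were 29.3, 28.1 and 28.9 FPKM with Gln added, 9.49, 9.53 and 9.855 at 12 h and 9.76, 9.59 and 9.39 at 24 h. The 6 deprived libraries of CDC6 lay close together, with means at 33.5% (12 h) and 33.3% (24 h) of the mean with Gln added. The log2 fold changes of CDC6 (chr17:40287879-40304657) were -1.57 ± 0.0389 and -1.58 ± 0.0389.

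CDT1, the loading partner of CDC6, fell in 2 steps. With Gln added its libraries held 18.7, 18.8 and 17.6 FPKM, at 12 h 13.6, 14.5 and 12.9, and at 24 h 10.3, 9.94 and 10.2. The 3 groups formed 3 separate steps. CDT1 fell by 0.42 at 12 h and by 0.85 at 24 h, and the step from 12 h to 24 h was -0.42 ± 0.0501 (adjusted p = 0.000261).

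Geminin, the inhibitor of CDT1, was already low at 12 h. GMNN read 22.6, 22.2 and 22.7 FPKM with Gln added, 12.9, 11.6 and 13.8 at 12 h and 12.2, 12.1 and 11.9 at 24 h, so that the deprived groups overlapped each other and lay far below the first. GMNN was -0.82 (12 h) and -0.89 (24 h) on the log2 scale.

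The 6 subunits of the MCM ring are needed in equal number in the protein complex, and their transcripts fell by unequal amounts. The largest log2 fold changes at 24 h were those of MCM5 (-1.48), MCM6 (-1.41), MCM2 (-1.33) and MCM4 (-1.25). MCM3 (-0.94) and MCM7 (-0.80) were nearer to 0, and they were the most abundant of the 6 per length with Gln added. The 6 had a median of -1.11 at 12 h and -1.29 at 24 h.

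MCM6, the least abundant of the ring, measured 19.2, 17.8 and 18.5 FPKM with Gln added, 7.48, 7.40 and 7.36 at 12 h and 7.39, 6.99 and 6.35 at 24 h. MCM7 read 103.8, 101.1 and 103.3 FPKM, then 74.1, 76.1 and 72.4, then 60.4, 56.0 and 60.3. No deprived library of either gene reached the lowest library with Gln added, but MCM7 kept 57.3% of its mean at 24 h and MCM6 37.4%. The drop of MCM7 from 12 h to 24 h (-0.33 ± 0.0382, adjusted p = 0.000224) was past the threshold and that of MCM6 (-0.10 ± 0.0572, adjusted p = 0.237) was not.

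MCM2 held 50.9, 49.1 and 50.7 FPKM with Gln added, 23.3, 23.6 and 22.9 at 12 h and 20.9, 19.2 and 19.5 at 24 h. MCM3 held 103.5, 104.9 and 100.1 FPKM, then 62.4, 63.7 and 60.4, then 54.3, 53.3 and 52.8. In both genes the 3 groups were separate, and most of the difference was in place at 12 h. Exons on the opposite strand lie across from 23.6% of the exonic bases of MCM2, and from 23.4% of those of GINS4. For GINS3 the share was 10.9% and for RFC5 10.6%. MCM4 (56.3, 25.8 and 23.6 FPKM as group means) and MCM5 (41.4, 17.3 and 14.7) had the same shape. MCM5 spread more at 12 h, where its 3 libraries were at 16.7, 19.4 and 15.6 FPKM.

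MCM8, a relative of the ring subunits that works in recombination repair, is the tenth gene of the subgroup. It went from 11.3, 11.4 and 11.8 FPKM with Gln added to 8.52, 8.92 and 8.75 at 12 h and 6.82, 6.59 and 6.82 at 24 h, 3 separate levels. MCM8 was -0.40 (12 h) and -0.76 (24 h) on the log2 scale. In GENCODE v44 33.3% of its exonic bases also belong to another gene of that strand, and how the counting treated such bases is not given in the sources used here.

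**Figure D2:**
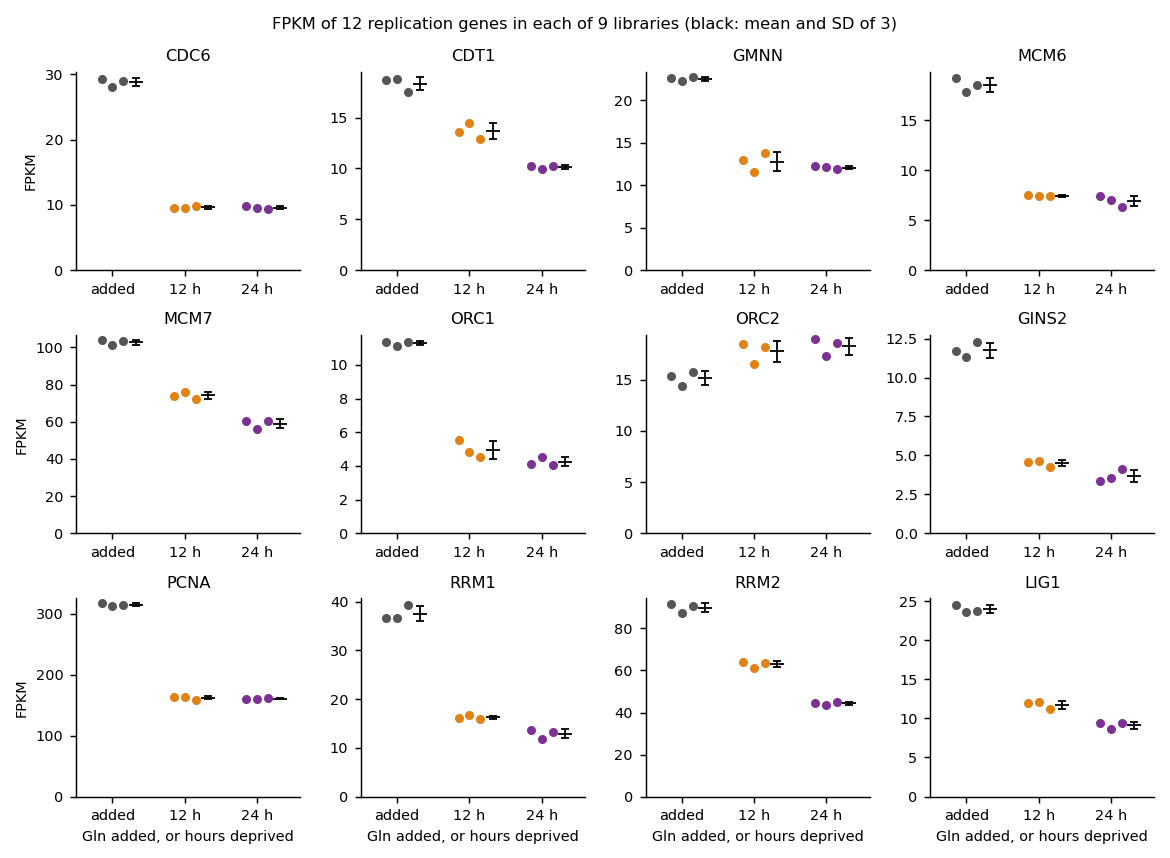
FPKM of 12 replication genes in each of the 9 libraries (points), with the mean and SD of 3 libraries beside each group (black); the y axes start at 0. CDC6, GMNN and PCNA were about level between 12 h and 24 h, whereas CDT1, MCM7 and RRM2 took a further step down, and ORC2 was above its level with Gln added.

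All 7 genes of helicase activation fell at both times, with medians of -0.85 and -1.07. GINS2, one of the 4 subunits of the GINS complex, had the most negative value of the 55 at 24 h. Its libraries read 11.7, 11.3 and 12.3 FPKM with Gln added, 4.59, 4.62 and 4.27 at 12 h and 3.38, 3.54 and 4.13 at 24 h. The groups did not overlap, and the log2 fold changes of GINS2 (chr16:85676198-85690073) were -1.37 ± 0.0746 and -1.65 ± 0.0746.

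GINS3, a subunit of the same complex, moved least of the 7. It was at 13.0, 12.2 and 13.4 FPKM with Gln added, 9.79, 9.75 and 9.97 at 12 h and 8.93, 7.97 and 8.75 at 24 h, again without overlap. The fold changes of GINS3 were -0.38 and -0.59, so that within one complex GINS2 was at 31.3% of its starting mean at 24 h and GINS3 at 66.4%. GINS1 (-1.07) and GINS4 (-0.79) lay between them at 24 h.

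MCM10, which helps the assembled helicase to start, fell by 1.18 at 12 h and by 1.34 at 24 h. CDC45 fell by 0.85 and by 1.13, from a mean of 10.7 FPKM to 5.88 and 4.82. WDHD1, which links the helicase to polymerase alpha, fell by 0.87 and by 0.95.

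The sliding clamp and its loader had medians of -0.79 and -0.90, and all 6 genes fell. PCNA was the most abundant transcript per length of the 55, at 317, 312 and 314 FPKM with Gln added. At 12 h it was at 164, 163 and 159 FPKM, and at 24 h at 161, 160 and 161. The deprived libraries of PCNA (chr20:5114953-5126626) sat together at about the same level, with a log2 fold change of -0.96 ± 0.0284 at 12 h and -0.97 ± 0.0284 at 24 h, and the step between the 2 times was -0.02 ± 0.0284.

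RFC1, the large subunit of the loader, fell less. Its values were 24.6, 22.6 and 23.9 FPKM with Gln added, 17.8, 18.1 and 18.7 at 12 h and 17.9, 17.2 and 18.7 at 24 h, with the deprived groups overlapping each other. On the log2 scale this was -0.38 (12 h) and -0.40 (24 h). RFC5, a small subunit, read 8.93, 9.78 and 9.46 FPKM, then 4.83, 5.49 and 5.63, then 3.98, 4.01 and 4.40. RFC5 was the loader gene with a called step from 12 h to 24 h (-0.35, adjusted p = 0.00551). The 5 loader genes ranged from -0.40 (RFC1) to -1.17 (RFC5) at 24 h.

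Polymerases and primase fell by smaller amounts, with medians of -0.50 (12 h) and -0.68 (24 h), and again all 9 passed the test at both times. The catalytic subunits of the polymerases were among those nearest to 0. At 24 h POLA1 stood at -0.64 on the log2 scale, POLE at -0.65 and POLD1 at -0.53. POLD1, the catalytic subunit of the lagging strand polymerase delta, was at 12.3, 12.1 and 11.4 FPKM with Gln added, 8.40, 8.84 and 7.90 at 12 h and 8.32, 7.71 and 8.57 at 24 h. The deprived groups of POLD1 overlapped each other and lay under the first.

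Accessory subunits of 2 of these enzymes fell further. POLE2, the second subunit of polymerase epsilon, was at 7.85, 8.56 and 7.91 FPKM with Gln added, 3.86, 3.68 and 3.90 at 12 h and 2.57, 3.52 and 3.27 at 24 h. The deprived libraries were all under the libraries with Gln added, with a log2 fold change of -1.07 ± 0.0984 and -1.36 ± 0.0984. POLA2 of polymerase alpha was at -0.96 and -1.08. Of its exonic bases 16.8% are shared with another gene on the same strand, and of those of PRIM1 15.1% are shared with other genes. The accessory subunits POLD2 (-0.68) and POLD3 (-0.63) of polymerase delta did not, and lay close to the polymerase catalytic subunits at 24 h. The primase subunits PRIM1 (-0.78) and PRIM2 (-0.96) were between POLA2 and the polymerase catalytic subunits at 24 h.

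At single-stranded DNA and in the joining of Okazaki fragments, 5 genes fell with medians of -0.89 and -1.0. LIG1, the ligase that seals the fragments, stood at 24.6, 23.7 and 23.8 FPKM with Gln added, 12.0, 12.1 and 11.2 at 12 h and 9.36, 8.60 and 9.38 at 24 h. The groups were separate at each step, and LIG1 (chr19:48115445-48170603) was at -1.02 ± 0.0494 and -1.39 ± 0.0494. FEN1, the flap nuclease that acts before LIG1, was at -0.85 at both times.

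Replication protein A binds single strands as a trimer. RPA2, the middle subunit, was at 15.05, 13.9 and 13.5 FPKM with Gln added, 9.69, 10.6 and 10.4 at 12 h and 10.9, 9.96 and 10.1 at 24 h. It kept 72.9% of its mean at 24 h, while the large subunit RPA1 kept 49.9% and the small subunit RPA3 43.6%. All 3 fell, with RPA2 at -0.45 on the log2 scale at 24 h, RPA1 at -1.0 and RPA3 at -1.19.

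The 4 genes of dNTP supply had medians of -0.91 and -1.20, the latter the most negative of the 9 subgroups at 24 h, and all 4 took a further called step between the times. RRM1, the large subunit of ribonucleotide reductase, read 36.7, 36.6 and 39.3 FPKM with Gln added, 16.2, 16.6 and 15.9 at 12 h and 13.6, 11.9 and 13.2 at 24 h. The fold changes of RRM1 (chr11:4094707-4138932) were -1.20 ± 0.0543 and -1.53 ± 0.0543. Its partner RRM2, whose protein is removed after S phase, read 91.4, 87.6 and 90.6 FPKM, then 64.1, 61.4 and 63.4, then 44.7, 43.7 and 44.9. The 3 groups of RRM2 were far apart, at -0.51 ± 0.0334 and -1.01 ± 0.0334 against Gln added.

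TK1, which salvages thymidine, was at 69.6, 68.9 and 66.6 FPKM with Gln added, 31.8, 32.1 and 32.2 at 12 h and 25.7, 27.0 and 25.5 at 24 h. TYMS, which makes dTMP de novo, was at 138, 131 and 133 FPKM, then 81.5, 79.2 and 80.9, then 72.6, 69.9 and 72.6. Both genes had 3 separate groups. TK1 was at -1.39 at 24 h and TYMS at -0.90. Of the exonic bases of TYMS, 47.9% lie across from exons of ENOSF1 and TYMSOS. Although the methods call the libraries strand-specific, whether the counting used strand is not given in the sources used here. This holds for TYMS and for MCM2, GINS4, GINS3 and RFC5.

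Of the 4 genes that act on chromatin at the fork, UHRF1, a reader of hemimethylated DNA, fell by 1.34 at 12 h and by 1.36 at 24 h. Its values were 18.6, 19.3 and 19.6 FPKM with Gln added, 7.16, 8.23 and 7.24 at 12 h and 6.83, 7.71 and 7.81 at 24 h. SLBP, which binds the ends of histone mRNAs, fell least of the 4. It was at 47.1, 45.5 and 48.2 FPKM, then 37.5, 37.95 and 36.7, then 33.7, 35.0 and 35.4, or -0.33 and -0.43 on the log2 scale. The deprived libraries of both genes were all under the libraries with Gln added. CHAF1A (-0.73) and CHAF1B (-0.83), subunits of the chromatin assembly factor CAF-1, lay between them at 24 h.

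In fork protection and checkpoint, CLSPN, the adaptor that carries the ATR signal to CHK1, was at 5.68, 5.59 and 5.71 FPKM with Gln added, 3.12, 2.98 and 2.96 at 12 h and 2.76, 2.76 and 2.50 at 24 h. DTL, the substrate receptor that directs CDT1 to degradation in S phase, was at 11.5, 12.3 and 12.6 FPKM, then 6.54, 6.30 and 6.92, then 6.67, 7.13 and 6.85. Both were well below their starting levels at each time, CLSPN at -0.88 and -1.06 and DTL at -0.87 and -0.81. TIMELESS fell by 0.52 and by 0.82. Its partner TIPIN fell by 0.96 and by 0.92, and 21.1% of the exonic bases of TIPIN are shared with the pseudogene RPL9P25 on the same strand.

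**Figure D3:**
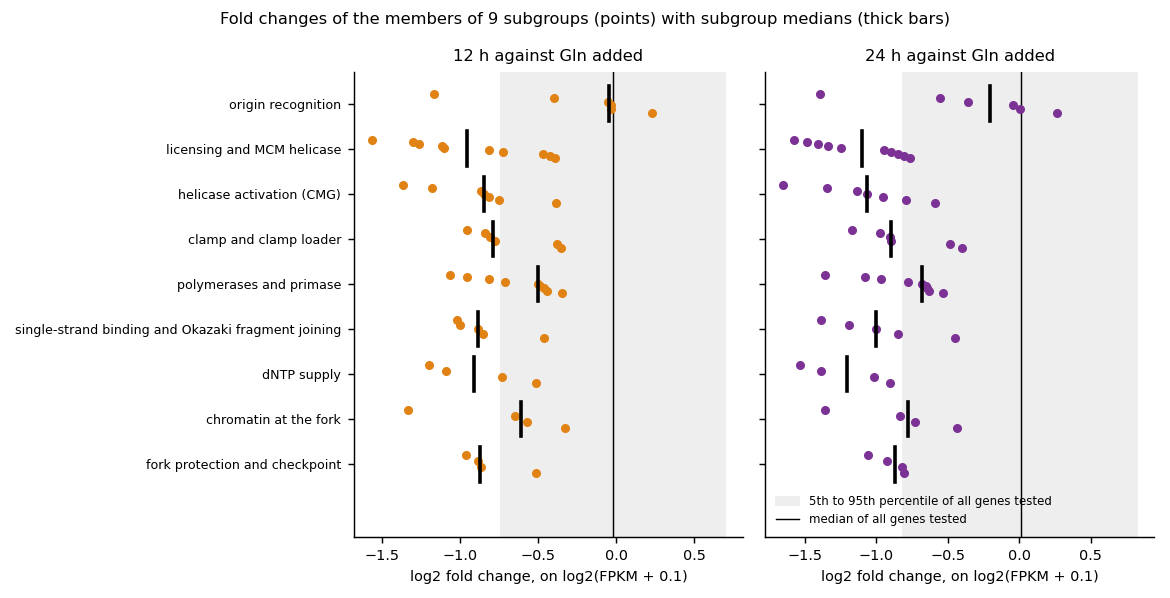
Log2 fold change of each gene (points) in the 9 subgroups at 12 h (left) and 24 h (right) against Gln added, with subgroup medians as thick bars, the median of all 11880 tested genes as a thin line and their 5th to 95th percentile in gray. The subgroup medians ran from -0.05 (origin recognition) to -0.96 (licensing) at 12 h and from -0.20 (origin recognition) to -1.20 (dNTP supply) at 24 h.

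Set side by side at 24 h, the medians ran from dNTP supply (-1.20), licensing (-1.10), helicase activation (-1.07) and the single-strand and Okazaki genes (-1.0) through the clamp and its loader (-0.90), fork protection (-0.87), chromatin (-0.78) and polymerases (-0.68) to origin recognition (-0.20). Subgroups hold 4 to 10 genes and their ranges overlap, and no test between subgroups was made. Genes with and without the E2F type letters also overlapped widely. The 24 with a match had a median of -0.86 at 12 h and -0.93 at 24 h, with a range of -1.65 to -0.55 at 24 h. The 25 with a window and no match had -0.65 and -0.83, with a range of -1.53 to 0.27.

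The direct comparison of the deprived groups asked whether the genes were lower at 24 h than at 12 h. Time in culture changes along with time without Gln in this comparison. From 12 h to 24 h 24 of the 55 fell and 0 rose in limma, against 10.5% and 9.57% of all tested genes, and 27 had no overlap with the 24 h libraries lower (16.9% of all genes). At an unadjusted p under 0.05 the count was 31 lower and 0 higher, and with voom on the recovered fragments 22 lower and 0 higher. The median step was -0.16, where that of all genes was 0.02. Of the 51 genes lower at both times against Gln added, 23 fell again and 28 were not called. Without replicate 2 at 12 h the count of 24 became 16, and MCM5, MCM4, GINS2 and GINS3 were among the calls lost.

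By subgroup, the further step was called for 4 of 4 genes of dNTP supply, 7 of 10 of licensing, 5 of 7 of helicase activation and 3 of 9 polymerase and primase genes. In each of origin recognition, the clamp and its loader, the single-strand and Okazaki genes, chromatin and fork protection it was called for 1 gene. RRM2 took the largest step (-0.50 ± 0.0334, adjusted p = 8.58e-06), followed by CDT1 (-0.42), MCM8 (-0.37) and LIG1 (-0.37). At the other end, 6 genes had a step above 0, the highest for DTL (0.06 ± 0.0542, adjusted p = 0.454).

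**Figure D4:**
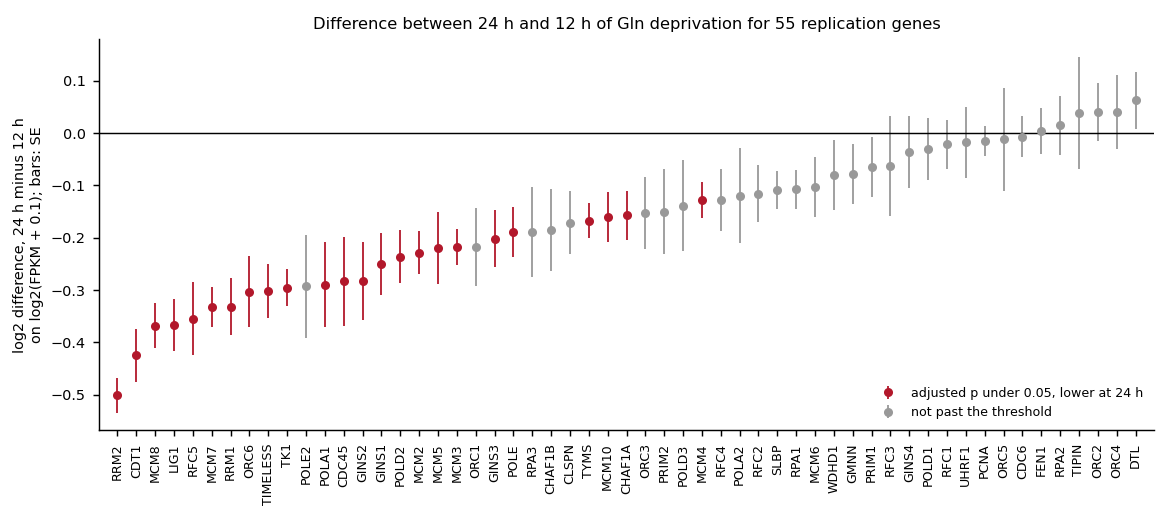
Log2 difference between 24 h and 12 h of Gln deprivation, on log2(FPKM + 0.1), for the 55 replication genes in order of the difference; bars are the SE of limma and red marks the 24 genes with an adjusted p under 0.05. RRM2 lies lowest at -0.50 and DTL highest at 0.06, and no gene was called higher.

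Partners of one complex or reaction fell by different amounts, which was read as the ratio of their FPKM within each library. The 6 pairs described were chosen after their values were seen, so they carry no test. RRM2 to RRM1 was 2.49, 2.39 and 2.30 with Gln added, 3.95, 3.69 and 4.001 at 12 h and 3.29, 3.68 and 3.40 at 24 h. All deprived libraries were above the first group, with 24 h just below 12 h. CDT1 to GMNN was 0.829, 0.847 and 0.774 with Gln added, 1.05, 1.25 and 0.938 at 12 h and 0.842, 0.824 and 0.859 at 24 h. That ratio was higher at 12 h, and at 24 h it overlapped the group with Gln added.

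The ratios of the remaining pairs were above the group with Gln added at both times. MCM7 to MCM6 had a mean of 5.56 ± 0.133 (SD, n = 3) with Gln added, 10.0 ± 0.24 after 12 h and 8.56 ± 0.813 after 24 h. RPA2 to RPA1 went from 0.638 ± 0.0364 to 0.857 ± 0.0499 and 0.933 ± 0.0446. ORC2 to ORC1 went from 1.34 ± 0.0478 to 3.59 ± 0.372 and 4.31 ± 0.445, the largest shift of the 6 pairs. POLE to POLE2 went from 1.10 ± 0.0347 to 1.69 ± 0.0728 and 1.84 ± 0.345, where 1 library at 24 h (2.23) stood above the other 2.

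**Figure D5:**
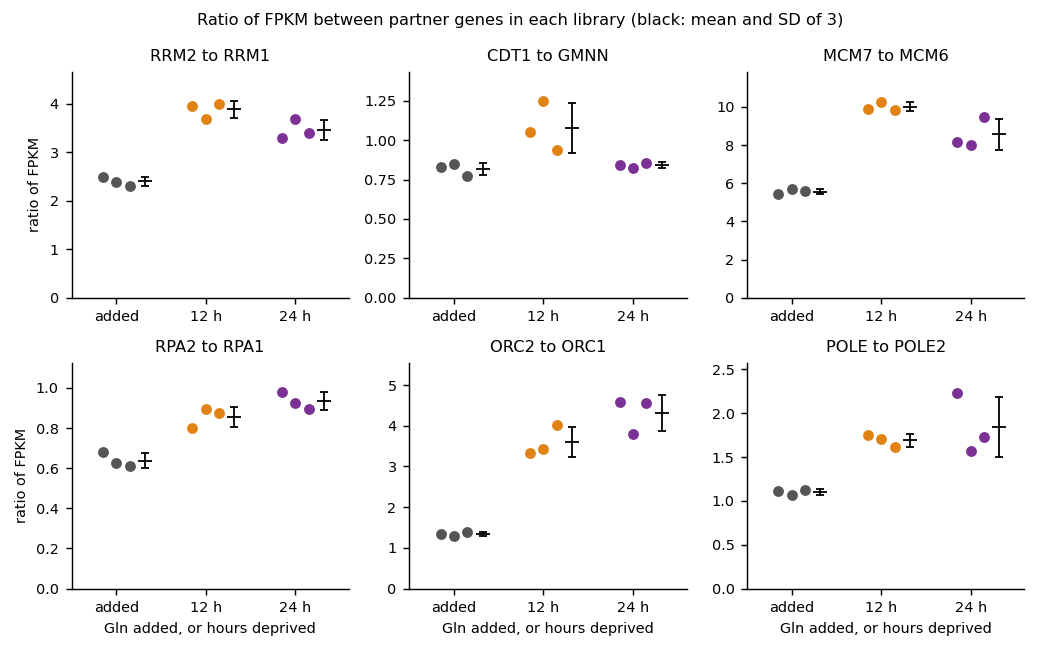
Ratio of FPKM between partner genes in each of the 9 libraries (points), with the mean and SD of 3 libraries beside each group (black); the y axes start at 0. The ratio of ORC2 to ORC1 rose from a mean of 1.34 to 4.31 at 24 h, and the ratio of CDT1 to GMNN was raised at 12 h (1.08) and back at 0.841 at 24 h.

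Replication genes outside the 55 were read from lists that hold the rest of the pathway. Of 25 further replication factors 24 were in the table. Of these 18 fell at 12 h (31% of all tested genes) and 20 at 24 h (31.7%), with medians of -0.33 and -0.46. ASF1B, a histone chaperone, had the most negative value at 24 h (-1.58). POLD4, the smallest subunit of polymerase delta, rose at both times. It read 6.47, 6.47 and 5.58 FPKM with Gln added, 9.43, 9.04 and 8.77 at 12 h and 12.7, 11.02 and 11.5 at 24 h, or 0.55 ± 0.0714 and 0.92 ± 0.0714 on the log2 scale. POLD4 thus rose in the libraries in which POLD1, POLD2 and POLD3 fell. DBF4B, an activator of the kinase CDC7, was higher at 12 h (0.37) and lower at 24 h (-0.27).

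Of 10 further genes of dNTP metabolism 7 fell at each time, against 31% (12 h) and 31.7% (24 h) of all tested genes. Their medians were -0.50 and -0.55. From 12 h to 24 h 2 of the 10 were called lower, against 10.5% of all tested genes. DCTD, which deaminates dCMP, rose at both times (0.34 and 0.45), and TK2, the mitochondrial thymidine kinase, was called higher at 24 h (0.29).

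Cell cycle regulators were read beside the replication genes. Of 14 such genes 10 fell at 12 h (31% of all tested genes). At 24 h 13 fell (31.7% of all tested genes) and 1 rose (33%). The medians of the 14 were -0.45 and -0.86. E2F8 had the most negative value at 24 h (-1.48). CDKN1A, the inhibitor p21, was at 33.9, 36.1 and 34.4 FPKM with Gln added, 33.6, 33.3 and 32.2 at 12 h and 45.3, 42.0 and 42.9 at 24 h. It was not called at 12 h (-0.07) and rose at 24 h (0.32). Of the 8 hepatocyte markers 6 fell at each time (31% and 31.7% of all tested genes), with medians of -0.22 and -0.26. The part of the cell cycle and of these markers in the values of the replication genes was not tested.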

How the data were processed

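The authors deposited FPKM per gene for 9 HepG2 libraries. Per the methods, reads were aligned to GRCh38 with STAR. The submitters' processing notes name HTSeq and R 3.2.0 without a role. The annotation and the strand setting of the counting are not given in the sources used here, and the labels name another library kit than the strand-specific one of the methods.

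The comparisons were made on log2(FPKM + 0.1), since FPKM are not counts, with limma 3.58.1 under R 4.3.3. One linear model held the 9 libraries of 3 groups (lmFit), variances were moderated with a trend (eBayes), genes averaging under 0.5 FPKM were left out, and p-values of the remaining 11880 genes were adjusted by Benjamini-Hochberg. The pseudocount makes changes of weakly expressed genes look smaller. Whole fragments were recovered from the FPKM steps for 100% of genes (tolerance 0.0002 fragments), and their sums were 99.991% to 99.992% of the solved totals. The scripts were tested on simulated data.

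Members and lists were chosen with earlier results of these data known. Genes named with values were, in each subgroup, those with the lowest and the highest fold change at 24 h, those not called lower at both times, the 3 largest differences between the times in each direction, and CDC6, CDT1, GMNN, MCM2 to MCM7, PCNA, POLE2, TYMS, RRM1, RRM2 and TK1, and of the other lists the lowest and highest at 24 h and those called higher. One gene of these other lists is not reported here. Alternatives were the pseudocount, the filter, 2 other scalings, the groups in the fit, the trend, a replicate block, voom and each library left out in turn. No pair of replicates was within sampling noise (chi-square per degree of freedom 3.04 to 16.4). Positions come from GENCODE v44 and promoter windows from RefSeq. Plots were made in Python 3.11.15 with matplotlib 3.10.9.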

Additional observations from a re-analysis of the deposited data

Results flagged for a closer look

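The effects of deprivation at 12 h and at 24 h, both against Gln added, differed in the direct test of limma for 16 of the replication genes picked by the rule for named genes, and all 16 were lower at 24 h. The 24 h minus 12 h differences on the log2 scale were -0.50 for RRM2 (adjusted p = 8.58e-06), -0.42 for CDT1, -0.37 for MCM8, -0.37 for LIG1 and -0.35 for RFC5. They were -0.33 for MCM7, -0.33 for RRM1, -0.30 for ORC6, -0.30 for TK1 and -0.28 for GINS2. In MCM2 the difference was -0.23, in MCM5 -0.22 (adjusted p = 0.047), in MCM3 -0.22, in GINS3 -0.20, in TYMS -0.17 and in MCM4 -0.13. All 16 had 3 libraries at 24 h below the 3 at 12 h, as had 16.9% of all tested genes. The rule picks genes partly by the 24 h fold change and by this same difference. The direction of the 16 is therefore partly set by how they were picked. Of the genes named outside the 55, POLD4 (0.37) and CDKN1A (0.39) were higher at 24 h than at 12 h, and DBF4B (-0.64), ASF1B (-0.47) and E2F8 (-0.69) lower. Over all tested genes the same comparison called 10.5% lower.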

How the results depend on the processing

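The 51 genes lower at 12 h and the 52 lower at 24 h kept their calls under all 19 alternatives. With a pseudocount of 1, which shrinks low genes by construction, the medians of all 55 became -0.72 at 12 h and -0.80 at 24 h. Subgroup medians at 12 h became -0.52 (chromatin), -0.71 (clamp and loader), -0.71 (fork protection), -0.76 (helicase activation) and -0.84 (single-strand and Okazaki), and at 24 h -0.66 (chromatin), -0.80 (clamp and loader), -0.75 (fork protection) and -0.94 (single-strand and Okazaki). With FPKM rescaled to the same total the 12 h medians were -0.78 for all 55, -0.88 for dNTP supply and -0.86 for single-strand and Okazaki genes. At 24 h they were -0.85 for all 55, -0.85 for the clamp and loader, -1.15 for dNTP supply, -1.05 for licensing, -0.63 for polymerases and -0.95 for single-strand and Okazaki genes. With median-ratio scaling the 24 h minus 12 h medians were -0.19 for all 55 and -0.35 for dNTP supply. Leaving out 1 library at a time gave -0.81 to -0.77 for all 55 at 12 h, -0.56 to -0.49 for polymerases at 12 h, -0.72 to -0.64 for polymerases at 24 h, -0.94 to -0.87 for the clamp and loader at 24 h, and, between the times, -0.24 to -0.17 for licensing and -0.33 to -0.30 for dNTP supply. For origin recognition it gave -0.14 to -0.03 at 12 h, -0.24 to -0.15 at 24 h and -0.12 to -0.03 between the times, and for fork protection -0.10 to -0.04 between the times.

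The count of 24 genes lower from 12 h to 24 h depended on the setting more than the others. It was 16 with only the groups compared in the fit, 16 to 22 with 1 library left out and 29 with median-ratio scaling. Single calls were followed only for the genes picked by the rule for named genes. Among those, MCM5, MCM4, GINS2 and GINS3 lost this call under 1 or more settings. ORC1, POLE2, CLSPN and SLBP gained it under 1 or more. The replicate numbers did not pair the libraries (correlations of same-numbered deviations -0.136 to 0.283). With the replicate number as a block, 51, 52 and 24 genes were lower at 12 h, at 24 h and between the times. Signs reversed only for differences close to 0 that were not called. With median-ratio scaling ORC4 was at -0.013 at 24 h and RPA2 at -0.021 between the times, and with the same total ORC5 was at 0.00060 at 24 h, and between the times CDC6 at 0.0069 and ORC5 at 0.0021. With 1 library left out at a time the ranges were, at 12 h, -0.12 to 0.017 for ORC4 and -0.15 to 0.049 for ORC5, at 24 h, -0.038 to 0.037 for ORC4 and -0.11 to 0.0066 for ORC5, and between the times -0.021 to 0.0098 for CDC6, -0.0084 to 0.078 for ORC2, -0.014 to 0.12 for ORC4, -0.095 to 0.11 for ORC5, -0.071 to 0.013 for POLD1, -0.053 to 0.0087 for RFC1, -0.024 to 0.040 for RPA2 and -0.053 to 0.046 for UHRF1.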

Other observations

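A list of 14 cell cycle genes held 6 that act in G2 phase or mitosis, singled out here after their values were seen. At 12 h against Gln added TOP2A (-0.51), CCNA2 (-0.40), CDK1 (-0.37) and CCNB1 (-0.15) were called lower on the log2 scale, and MKI67 (-0.07) and PLK1 (0.11) were not called. At 24 h all 6 were called lower, from -0.68 for MKI67 to -1.13 for TOP2A. In the direct comparison of 24 h with 12 h by limma all 6 were lower, by -0.53 (CDK1) to -0.88 (PLK1), beside a median of -0.16 and a lowest value of -0.50 (RRM2) for the 55 replication genes. The whole list of 14 had a median of -0.43 in this comparison. E2F8 of that list and DBF4B of the further replication factors also fell by more than RRM2 between the times. The difference between these 6 genes and the 55 was not tested.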
